A study of Mus musculus with 2 samples.

Results

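The complement genes described here are 10 genes chosen by symbol for their place in the complement cascade: C1qa, C1qb and C1qc (the chains of C1q), C2, C4b, C3 and Cfb (components of the convertases), Cfi and Serping1 (soluble regulators) and Cd55 (a membrane regulator). They are 10 of 22909 mouse genes that had at least 1 probe matched by its RefSeq accession, and 15 probes on the array belonged to them. The choice was made with earlier results of these data known. Gene expression was measured in total RNA of whole colon from C57BL/6 mice on Agilent 1-colour (Cy3) arrays, 1 array per genotype. The control was Villin-Cre. The other genotype was Villin-Cre; EP4flox/flox, named EP4 cKO, in which Ptger4, the gene of the prostaglandin E2 receptor EP4, is floxed. Both genotypes carried Villin-Cre, a transgene that expresses Cre recombinase from the Villin promoter in the intestinal epithelium, so that stromal and immune cells of the colon were left with Ptger4. The methods gave an age of 8 weeks for the mice of the study, and the labels gave no treatment. By the labels, each array received RNA from 3 colon pools that had been joined.

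With 1 array per genotype no test was possible, no spread between mice could be given, and every difference below is a difference between 2 arrays. The error given after a log2 ratio (±) is the one that the scanner software estimated for the spots of that probe. It covers the reading of 1 hybridization and not the mice. In RNA of whole colon, fewer cells of a type and less RNA per cell cannot be told apart.

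The targeted gene was looked at first. Ptger4 had 2 probes, with normalized signals of 6227 (Villin-Cre) and 5661 (EP4 cKO) for the brighter one, a log2 ratio of -0.14, and of 393 and 592 for the dimmer one, a log2 ratio of 0.59. Neither probe was lower on the EP4 cKO array by 2-fold, and over the processing choices the ratio of the gene lay between -0.15 and 0.90. Whether these probes lie in the floxed part is not given in the sources used here, so that the labels were not checked by this gene. Every direction below rests on the labels, and EP4 cKO means the array labelled so. The tissue label was met by the markers of colon epithelium, of which 12 of 12 were well above background on both arrays, with Krt8 at 663603 and 686670.

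Complement is a cascade of plasma and cell surface proteins that marks microbes and damaged cells. C1q recognizes its targets and activates the proteases C1r and C1s, which cut C4 and C2 to form the C3 convertase of the classical pathway, whereas factor B joins C3b in the convertase of the alternative pathway. Both cut C3, and regulators such as C1 inhibitor, factor I and CD55 hold the cascade back. The liver makes most of the circulating proteins, but epithelial cells, fibroblasts and macrophages in tissues also express some of these genes, macrophages in particular C1q.

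Signals were scaled so that the mean of each array, trimmed by 2% at each end, was 2500. A gene was read by its brightest probe, and more than 2-fold was the threshold for calling a gene higher or lower. The convertase genes and Cd55 had more signal on the EP4 cKO array, the C1q genes were within 2-fold, and Serping1 had less. Of the 10 genes, 5 passed 2-fold towards the EP4 cKO array (C2, C3, C4b, Cd55 and Cfb), where 4.86% of 14669 genes with a value did. 1 gene, Serping1, passed 2-fold towards the Villin-Cre array, where 7.87% of the genes with a value did. Because the 10 were chosen with earlier results known, these counts cannot test whether complement genes differ from all genes. C1qa, C1qb and C1qc lay within 2-fold, and Cfi did not clear background, meaning that its probe was well above background on neither array. 7 of the 10 were measured on both arrays. Their log2 ratios had a median of 1.09, and those of all genes so measured had a median of -0.15. C1qa and C1qc entered through the EP4 cKO array alone. Counted at a log2 ratio of 0 they bring the median of the genes with a value to 1.01, beside -0.10 for all genes with a value.

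**Figure D1:**
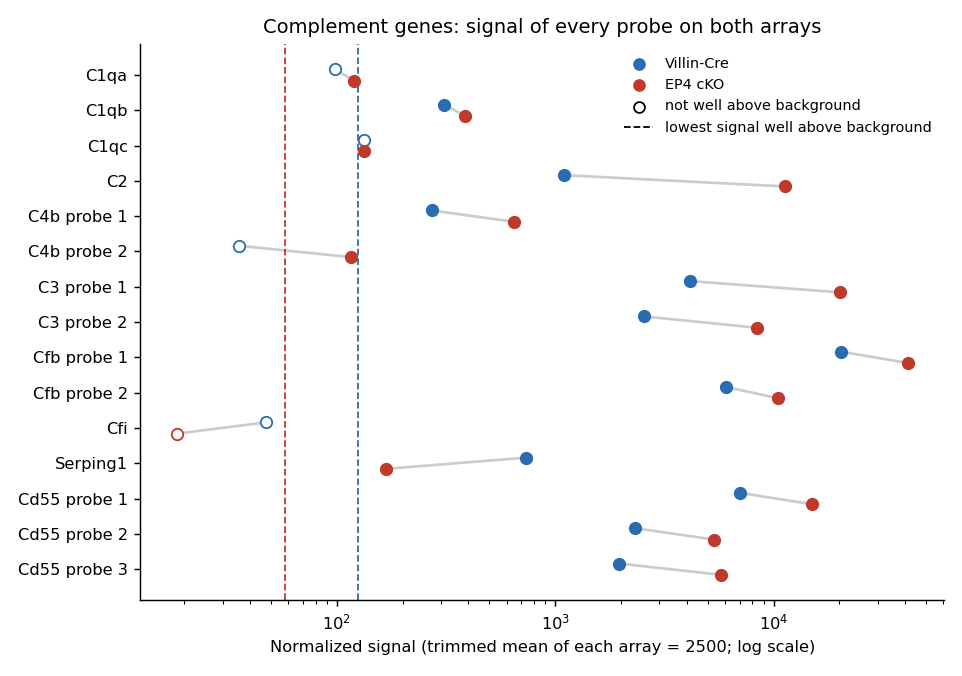
Normalized signal (log scale) of each of the 15 probes of the 10 complement genes on the Villin-Cre array (blue) and the EP4 cKO array (red), with open circles where a probe was not well above background and dashed lines at the lowest signal well above background on each array (125.4 and 57.8). The probes of C2 and C3 show wide gaps towards the EP4 cKO array, Serping1 shows one in the other direction, and the C1q probes lie near the floor.

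The C1q chains, which recognize the target, had dim probes. C1qb, which codes for the B chain, read 308.5 on the first array (Villin-Cre) and 388 on the other (EP4 cKO), a log2 ratio of 0.33 ± 0.24. C1qa, the A chain, had 98.3 and 119.5, and C1qc, the C chain, had 133.9 and 133.3. Both probes were well above background on the EP4 cKO array and not on the Villin-Cre array, and neither gave a fold above 1 against the higher of the floor and its own signal on the Villin-Cre array. The difference for C1qb was within 2 errors of 0, and no difference of the other chains was detectable at these signals. Scaled to control RNA, as described further on, C1qb and C1qc were past 2-fold, with log2 ratios of 1.37 and 1.03.

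C1q is made by macrophages in many tissues, so the markers of that cell type are given beside it. Of 12 macrophage markers, 8 had a value, 2 were past 2-fold higher (Mrc1 and Cx3cr1, both as lower bounds) and 1 past 2-fold lower (Ms4a7, a log2 ratio of -1.70). Their median log2 ratio was 0.20, or -0.55 over the 5 measured on both arrays, and their summed signal was 16238 (Villin-Cre) and 20991 (EP4 cKO). The brightest were Cd14 with a log2 ratio of 0.88, Csf1r with -0.79 and Mertk with -0.55. Adgre1, Fcgr1, Lyz2 and Cd163 did not clear background. The part of macrophages in the C1q signals was not tested.

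The 3 C1q genes lie side by side on chromosome 4. The RefSeq table of promoters (GRCm38.p6) held those of C1qb and C1qc, and the 250 bases before each start are shown because the pair can be set beside the promoter of C3, which had the higher ratio. They lie at chr4:136886201-136886450 and chr4:136892915-136893164, both on the minus strand.
C1qb: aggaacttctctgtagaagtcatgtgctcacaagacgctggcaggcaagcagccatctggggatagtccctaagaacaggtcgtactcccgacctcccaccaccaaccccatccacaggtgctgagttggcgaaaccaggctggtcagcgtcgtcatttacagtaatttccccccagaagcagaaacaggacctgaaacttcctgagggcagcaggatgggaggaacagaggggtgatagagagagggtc
C1qc: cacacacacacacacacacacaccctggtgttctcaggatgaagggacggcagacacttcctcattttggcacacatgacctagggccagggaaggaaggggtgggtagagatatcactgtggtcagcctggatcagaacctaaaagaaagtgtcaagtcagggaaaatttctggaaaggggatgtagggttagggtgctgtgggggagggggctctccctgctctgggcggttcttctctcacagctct

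Both strands of each promoter were searched for 5 short motifs, which are the interferon-gamma motif GAS (TTCNNNGAA), the core of the interferon motif ISRE (GAAANNGAA), a kappaB motif (GGNNTTTCC), a C/EBP motif (TTGCNNAA) and the cyclic AMP motif CRE (TGACGTCA). No letters in the windows of C1qb and C1qc matched any of the 5. Of 32851 promoter windows of the same length in the table, 7.02% held the GAS letters, 7.13% the ISRE core, 4.93% the kappaB letters, 9.56% the C/EBP letters and 1.55% the CRE. The GAS and ISRE letters can overlap in a run of such bases.

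C2, the protease that forms the classical C3 convertase together with C4, had the widest difference of the 10. Its probe read 1098 for Villin-Cre and 11333 for EP4 cKO, which is 10.3-fold, a log2 ratio of 3.37 ± 0.21. C2 ranked 85 from the highest ratio among the 14669 genes with a value, and its ratio lay 3.47 above the median of all genes. Over the planned processing choices its log2 ratio was between 3.12 and 3.52.

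C3, the protein that both convertases cut, had 2 probes. The brighter read 4158 and 20243, a log2 ratio of 2.28 ± 0.20, and the other read 2545 and 8355, a log2 ratio of 1.71 ± 0.20. The probes of C3 pointed the same way, and both were past 2-fold by more than 2 errors. C3 ranked 165 from the highest ratio, and over the planned processing choices its log2 ratio was between 2.0 and 2.44. Its promoter is shown because C3 was the convertase gene whose promoter was in the table. It covers chr17:57228137-57228386 on the minus strand, and the capitals mark the letters that matched the C/EBP motif, from base 45 to base 38 before the start. None of the other 4 motifs matched there.
C3: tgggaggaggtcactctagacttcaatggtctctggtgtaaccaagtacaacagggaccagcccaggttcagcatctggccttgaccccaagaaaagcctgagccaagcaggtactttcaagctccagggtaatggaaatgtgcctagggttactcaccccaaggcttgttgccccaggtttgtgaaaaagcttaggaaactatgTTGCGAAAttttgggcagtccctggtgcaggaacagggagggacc

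C4b codes for the complement protein C4, which is cut to the C4b fragment of the classical convertase. Its 2 probes disagreed in what they allow. The brighter read 273.8 and 645, a log2 ratio of 1.24 ± 0.26. The dimmer read 35.8 and 115.7, was well above background on the EP4 cKO array alone and gave no fold. Normexp background correction with quantile normalization gave 0.96, within 2-fold. The mean of both probes was 0.62, a value that follows from counting the dimmer probe at 0, and the own signals of that probe had a log2 ratio of 1.69 ± 1.27. C4a is a near-identical copy of C4b, and how far the probes separate the pair is uncertain. The probe named C4a did not clear background.

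Cfb codes for factor B, the protease of the alternative pathway convertase. Its brighter probe read 20433 and 41233, a log2 ratio of 1.01 ± 0.20, and the other read 6064 and 10514, a log2 ratio of 0.79 ± 0.20. Both pointed the same way, but the first was at the 2-fold mark and the second was below it. Cfb was within 2-fold by the mean of its probes (0.90) and by normexp with quantile normalization (0.95).

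**Figure D2:**
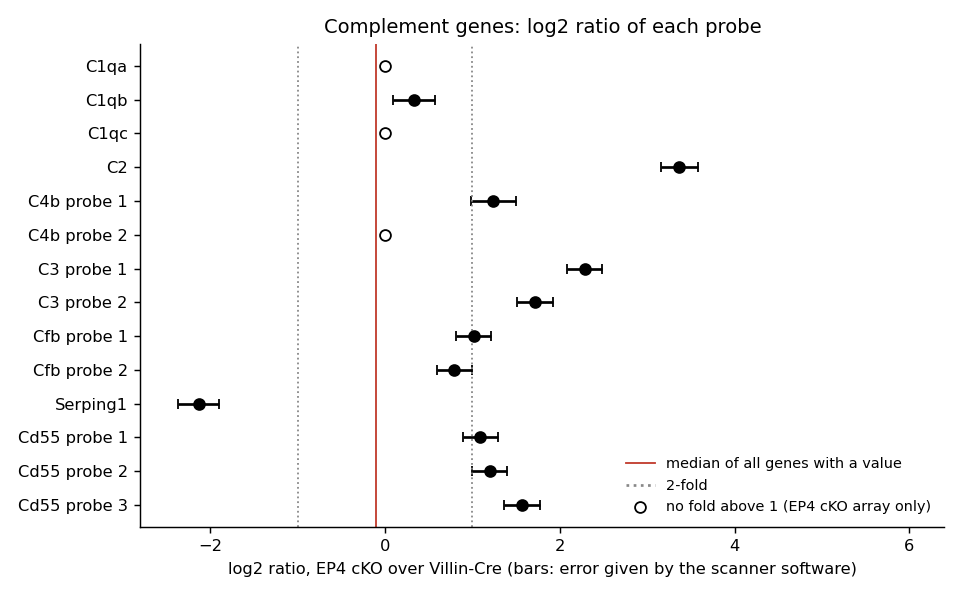
Log2 ratio of EP4 cKO over Villin-Cre for each probe of the complement genes that was well above background on at least 1 array, with bars for the error given by the scanner software, dotted lines at 2-fold and a red line at the median of all genes (-0.10). C2 (3.37) and C3 (2.28 and 1.71) lie clear of the 2-fold line, the first probes of C4b, Cfb and Cd55 lie within 2 errors of it, and Serping1 (-2.13) lies on the other side.

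C2, Cfb and C4b lie close together in the class III part of the major histocompatibility complex on chromosome 17, and the genes around them were read for comparison. Of 21 genes among the 5 nearest on each side of these 3, 12 had a value, and the median of those was -0.31. 0 of the 12 passed 2-fold towards EP4 cKO and 1 passed it towards Villin-Cre, Tnxb, a gene of an extracellular matrix protein (498.4 and 86.7, a log2 ratio of -2.52). The highest of the neighbours was Neu1, a lysosomal sialidase, with a log2 ratio of 0.88, which was below the 1.01 of Cfb. Around the C1q genes, 3 of 10 neighbours had a value, and Lactbl1, at 601.5 for Villin-Cre and not well above background for EP4 cKO, had a log2 ratio of -3.38 as a bound.

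Of the soluble regulators among the 10, Serping1 alone gave a ratio. Serping1 codes for C1 inhibitor, which blocks C1r and C1s. Its probe read 735.1 for Villin-Cre and 167.6 for EP4 cKO, a 4.38-fold lower signal and a log2 ratio of -2.13 ± 0.23. Serping1 ranked 292 from the lowest ratio, and it was more than 2-fold lower under every processing choice tried. Its log2 ratio was -1.31 with normexp and quantile normalization and -1.10 when scaled to control RNA. Cfi, the gene of factor I, which cuts C3b and C4b, read 47.6 and 18.5, neither of them well above background, so that it has no ratio.

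Markers of fibroblasts, a cell type known to express Serping1, moved with it. Of 8 fibroblast markers, 7 had a value, and 6 of them were more than 2-fold lower on the EP4 cKO array. Their median log2 ratio was -4.32, or -3.27 over the 4 measured on both arrays, and their summed signal was 14969 (Villin-Cre) and 2320 (EP4 cKO). Dcn (decorin) had a log2 ratio of -5.77, Col1a2 (a collagen I chain) -5.03 and Thy1 0.29. Col1a1, Col3a1 and Lum were well above background on the Villin-Cre array alone, and Pdgfra was not on either. The part of these cells in the signal of Serping1 was not tested. Among smooth muscle markers 4 of 5 had a value, 1 was past 2-fold lower (Cnn1) and the median was 0.19. Over the 3 measured on both arrays the median was 0.38. Des gave no fold and counted as 0, and Myh11 did not clear background.

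Cd55 codes for decay-accelerating factor, a protein anchored on the cell surface that takes C3 convertases apart. It had 3 probes, and the brightest read 7049 for Villin-Cre and 15002 for EP4 cKO, a log2 ratio of 1.09 ± 0.20. The second read 2329 and 5334, a log2 ratio of 1.20 ± 0.20, and the third read 1955 and 5773, a log2 ratio of 1.56 ± 0.20. The 3 probes pointed the same way and each was past 2-fold, the first and second by less than 1 error. Over the planned processing choices the gene was between 1.07 and 1.28, past 2-fold each time. Its near copy Cd55b, which lies beside it, read 2579 and 5488 with its brighter probe, a log2 ratio of 1.09, and its dimmer probe gave no fold. By the mean of its probes, with the dimmer counted as 0, Cd55b was at 0.545, within 2-fold. How far the probes of the pair read each other's RNA is uncertain. The promoter of Cd55, shown as that of the regulator with more signal, covers chr1:130462745-130462994 on the minus strand and held no match to the 5 motifs, and 64.0% of its bases were G or C.
Cd55: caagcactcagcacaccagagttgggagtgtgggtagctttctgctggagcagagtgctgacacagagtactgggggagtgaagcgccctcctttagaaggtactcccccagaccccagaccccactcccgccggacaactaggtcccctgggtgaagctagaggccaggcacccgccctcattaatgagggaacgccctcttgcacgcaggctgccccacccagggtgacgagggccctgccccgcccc

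The 10 genes were then set within the wider system. Of 44 other complement genes, 21 had a value, 3 were past 2-fold towards EP4 cKO (4.86% of all genes with a value) and 3 towards Villin-Cre (7.87% of all), and their median log2 ratio was 0.12, beside -0.10 for all genes. The other 23 did not clear background. They include genes of the late pathway such as Hc (C5), C6 and C9, the mannose-binding lectins Mbl1 and Mbl2, and the receptors C3ar1 and C5ar1.

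The proteases that act between C1q and the convertase went in different directions. C1ra, a gene of C1r, read 872.2 and 3140, a log2 ratio of 1.85. C1s1, a gene of C1s, read 228.4 and 65.2, a log2 ratio of -1.81, and C1s2, its near copy, read 242.7 and 34.8, which is at least 4.20-fold lower. With normexp and quantile normalization C1s1 and C1s2 were within 2-fold (-0.68 and -0.65). C1ra and C1rb are near copies too, and C1rb was near the floor, with a bound of 0.16.

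Among the soluble regulators outside the 10, Clu, the gene of clusterin, which binds the terminal complex, read 9784 for Villin-Cre and 1049 for EP4 cKO, a log2 ratio of -3.22. C4bp, the gene of C4b-binding protein, which helps to inactivate C4b, read 3806 and 6971, a log2 ratio of 0.87. The soluble regulators thus went both ways, with Serping1 and Clu lower by more than 2-fold and C4bp higher by less, though by up to 1.03 over the planned processing choices. Cr1l, the gene of the rodent membrane regulator Crry, read 24160 and 26156 with its brighter probe, a log2 ratio of 0.12, beside the 1.09 of Cd55.

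In the other groups the differences were smaller or dim. Cfp, the gene of properdin, which holds the alternative convertase together, had a log2 ratio of -0.86 (0.18 when scaled to control RNA), and C7, a part of the terminal complex, had 0.10. Of the receptors, Itgax, a chain of complement receptor 4, read 152.1 and 504.9 with its brighter probe, a log2 ratio of 1.73. The dimmer probe of Itgax read 31.2 and 14.1 and did not clear background. Itgam, a chain of complement receptor 3, read 49347 and 68597 with its bright probe, a log2 ratio of 0.47. Its other probe, made for another transcript record, read 145.3 and 84.1. That dim probe was well above background on the EP4 cKO array alone and gave no fold. Its own signals went the other way, with a log2 ratio of -0.79 ± 0.46.

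**Figure D3:**
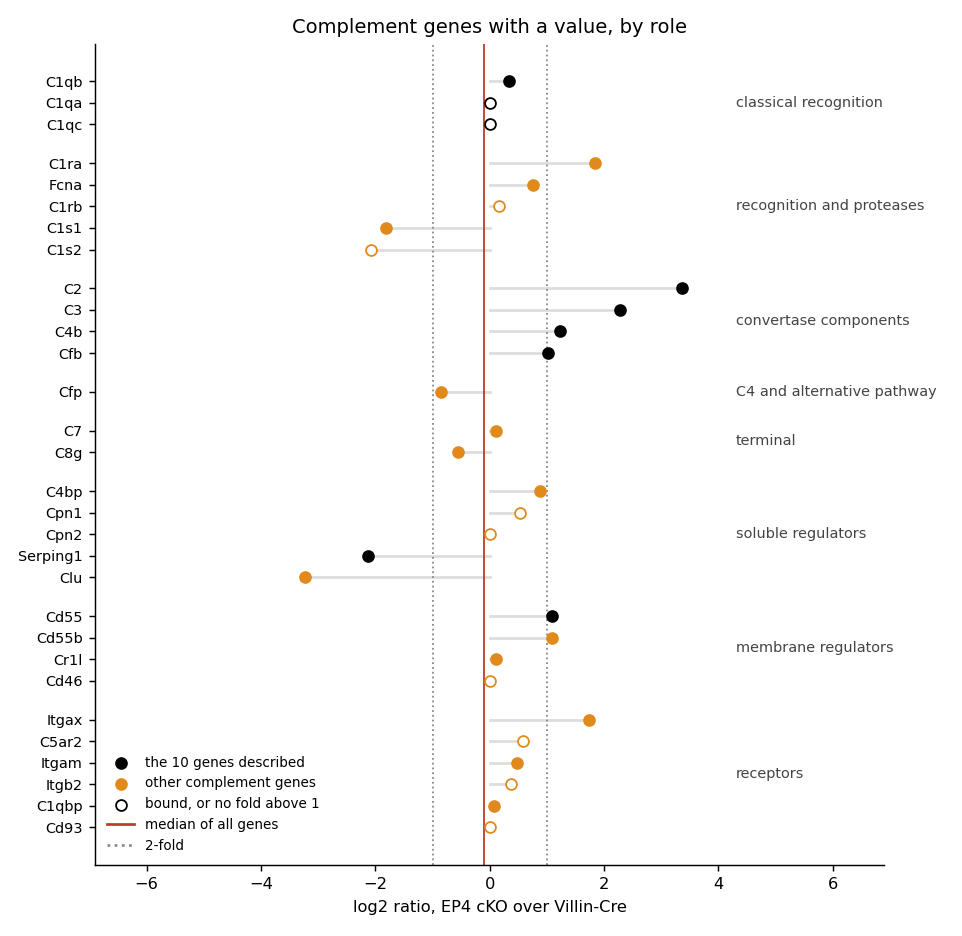
Log2 ratio of EP4 cKO over Villin-Cre for the 30 complement genes with a value, grouped by role, with the 10 genes described in black, the others in orange, and open circles for bounds and for genes that gave no fold above 1. C2 (3.37) is at the right end and Clu (-3.22) and Serping1 (-2.13) at the left.

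C2, C3, C4b and Cfb are known to be induced by interferon-gamma or by signals through NF-kappaB in several cell types, so genes of both responses are given side by side with them. Of 24 genes of the interferon-gamma response, 24 had a value, 23 were more than 2-fold higher on the EP4 cKO array and 0 lower, and the median log2 ratio was 3.26. Of these genes 5 entered as bounds, through the EP4 cKO array alone, and the 19 measured on both arrays had a median of 3.24. Of all genes with a value, 4.86% were more than 2-fold higher. The brightest, H2-Ab1, Cd74 and Irf1, had log2 ratios of 5.89, 6.98 and 1.36. Of 20 genes of the NF-kappaB and acute phase response, 17 had a value. Their median was 0.62, or 0.495 over the 12 measured on both arrays. More than 2-fold higher were 4 of the 17, and 0 were more than 2-fold lower. The 4 were Socs3 and, as bounds, Saa3, Il1b and Lcn2, and the brightest, Saa2, Saa1 and Nfkbia, had log2 ratios of 0.53, 0.64 and 0.71. C2 stood at 3.37, C3 at 2.28, C4b at 1.24 and Cfb at 1.01. Both lists were chosen with earlier results of these data known, so their counts cannot rank the responses. A link between these lists and the complement genes was not tested.

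Markers of the other cell types had medians closer to that of all genes than the fibroblast markers had. The 12 epithelial markers had a median of 0.21, with Krt20 alone past 2-fold (1.80), Krt8 at 0.05 and Krt19 at 0.32. The 6 T cell markers had a median of 0.09, with 1 more than 2-fold higher, and the 4 of 6 B and plasma cell markers with a value had a median of 0.19. The liver makes most circulating complement, and 4 of 6 liver markers had a value, with a median of -0.02 and summed signals of 23327 and 20293. Over the 3 liver markers measured on both arrays the median was -0.49, and Serpina1a entered as a bound of 0.65. Of 4 further lists, each with 2 genes measured on both arrays, the median was -0.27 for neutrophils, -0.05 for endothelium, -1.12 for enteric neurons and glia and -0.30 for pancreas. Of 5 dendritic cell markers, 0 were measured on both arrays, and 1, Itgae (158.7 and 523), was past 2-fold higher as a bound.

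**Figure D4:**
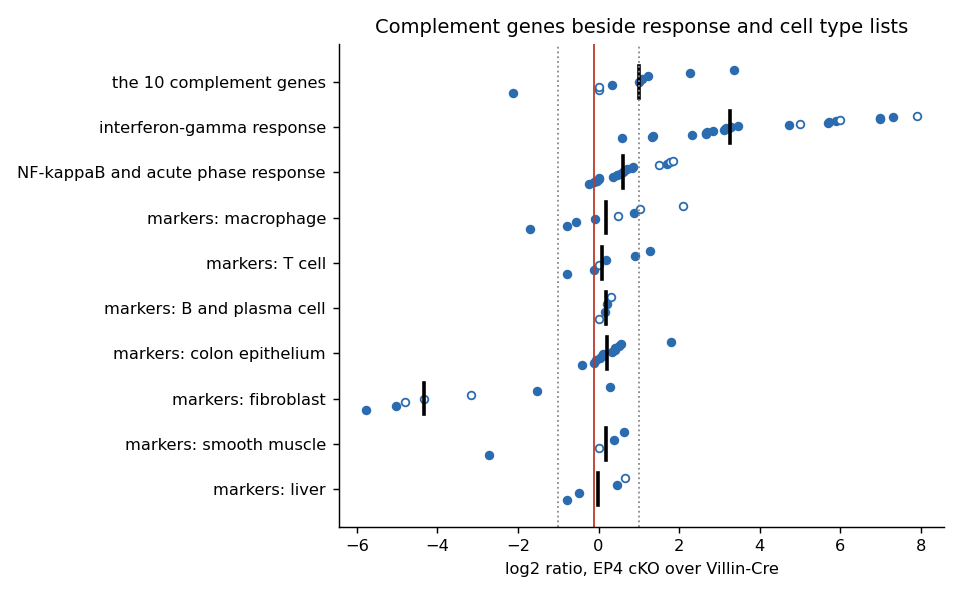
Log2 ratio of EP4 cKO over Villin-Cre for each gene with a value (points, open where a bound or no fold above 1) in the complement genes and in lists of response genes and cell type markers, with black bars at list medians, a red line at the median of all genes and dotted lines at 2-fold. The complement genes spread from -2.13 to 3.37, the interferon-gamma genes lie at 0.59 and above, and 6 of the 7 fibroblast markers lie below -1.

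Scaling was the processing choice that moved all values at once. In place of the trimmed mean of the gene probes, the 75th percentile, the trimmed mean over all spots, loess and normexp with quantile normalization raised the median of the probes measured on both arrays by 0.12 to 0.16 on the log2 scale, and the median of all genes from -0.10 to between -0.01 and 0. Scaling to E1A control spots, which read RNA added at labelling, raised the probe median by 1.04 and put 39.0% of all genes with a value past 2-fold higher. The ratios of C2, C3, C4b, Cfb and Cd55 then became 4.40, 3.32, 2.27, 2.05 and 2.12. Relative to the median of all genes, C2 was 3.47 higher, C3 2.38, C4b 1.34, Cd55 1.19 and Cfb 1.11, and Serping1 was 2.03 lower.

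**Figure D5:**
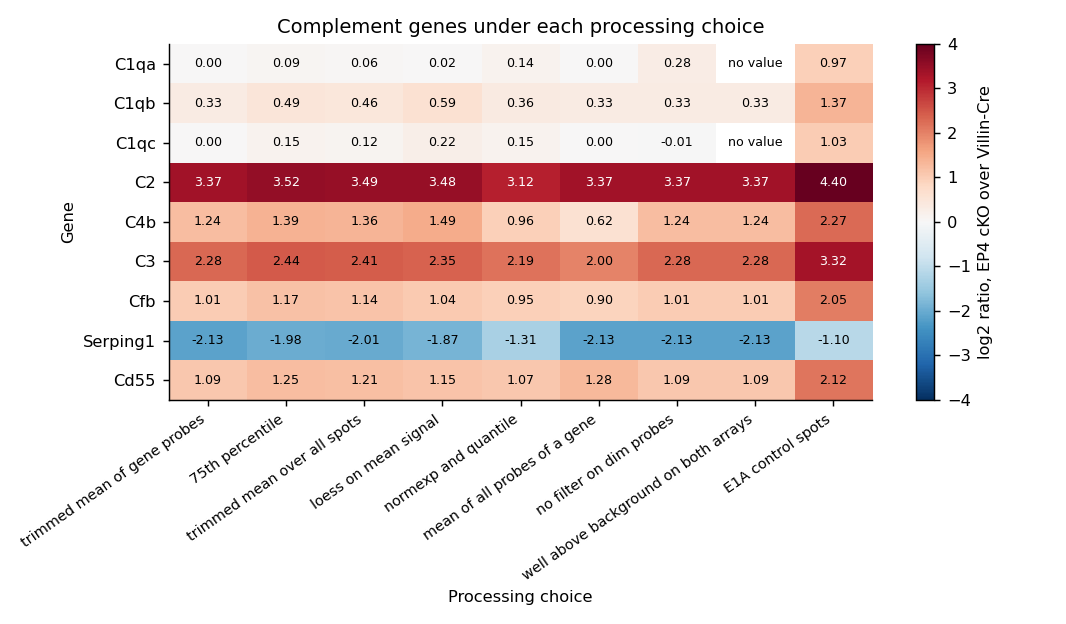
Log2 ratio of EP4 cKO over Villin-Cre for the 9 complement genes with a value (rows) under each processing choice (columns), in colour from blue (lower on EP4 cKO) to red (higher) and as numbers. C2, C3 and Cd55 stay above 1 and Serping1 below -1 in every column, C4b and Cfb drop below 1 with normexp and quantile normalization and with the mean of all probes, and E1A control spots shift the 9 genes upwards.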

How the data were processed

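Gene expression in whole colon was measured on 2 Agilent arrays, 1 for Villin-Cre and 1 for EP4 cKO, with samples mapped to genotypes by their labels. The authors deposited scanner output (Feature Extraction 12.0.3.1 by the file headers, 11.5.1.1 by the submitters' processing notes). The deposited intensity values taken were processed signals, background-subtracted and detrended by that software, without scaling between arrays. Flags for background, saturation (0 spots) and outliers (147 and 126 spots, left out) were used as deposited.

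Spots of a probe were averaged, and each array was scaled to a trimmed mean of 2500 (2% at each end), as in the methods (factors 3.45 and 2.68). Of 56593 probes, 32989 were matched by RefSeq accession (GRCm38.p6) to 22909 genes. Well above background were 45.4% of probes for Villin-Cre and 51.6% for EP4 cKO. A gene was read by the probe with the highest mean signal over both arrays. A probe well above background on 1 array gave a bound, its signal against the higher of its own signal on the other array and the lowest signal well above background there (125.4 or 57.8). A bound of 1-fold or less gave no fold and counted as 0 in medians and in means of a gene's probes. 278 probes with at least 8 usable spots had a median SD of 0.035 (log2) between their spots. The number of arrays limits the precision.

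The 10 genes and all lists were chosen with earlier results of these data known. Genes named are the 10, other complement genes past 2-fold or the brightest of their role, neighbours past 2-fold, Ptger4, and up to 3 genes of each list with the highest mean signal. Other genes named (Neu1, C4bp, C1rb, C4a and members of small counts, among them genes not well above background) were chosen after their values were seen. No test was made, since each genotype has 1 array, and no array could be left out. Alternatives were scaling to the 75th percentile or to a trimmed mean that takes in all spots, loess against mean signal with a span of 0.3, normexp (offset 50) followed by quantile normalization, a stricter filter on dim probes and none, averaging a gene's probes, and thresholds of 1.5- and 3-fold. The plan for normexp assumed the mean signal. The deposited scanner output held the median signal, which was used in its place. Scaling to E1A control spots was added after seeing the data. The procedure was checked on simulated data.

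The tools were R 4.3.3 with limma 3.58.1, and Python 3.11.15 with matplotlib 3.10.9, statsmodels 0.14.6, pandas 2.3.3 and numpy 2.4.6. Promoters came from a RefSeq table, in which 4 of the 10 genes matched by symbol (C1qb, C1qc, C3 and Cd55). The values of some single genes of the wider complement list were left out and are not reported here.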

Additional observations from a re-analysis of the deposited data

How the results depend on the processing

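The 5 genes past 2-fold higher (C2, C3, C4b, Cfb and Cd55) and Serping1 past 2-fold lower were so with the 75th percentile, loess, a trimmed mean over all spots, the filter on both arrays and a 1.5-fold threshold. 3 genes (C2, C3 and Cd55) were past 2-fold higher with normexp and quantile normalization (4.02% of all genes) and with the mean of all probes (4.57%), 2 (C2 and C3) were past 3-fold (2.21%), and 7 were past 2-fold with E1A control spots (39.0%). Without a filter on dim probes 2 of the 10 were lower (Serping1 and Cfi), where 31.5% of all genes were. The median of the complement genes with a value (1.01) was 1.17 with the 75th percentile, 0.95 with normexp, 1.14 with a trimmed mean over all spots, 1.09 for probes well above background on both arrays, 0.67 without a filter, 0.62 with the mean of all probes and 2.05 with E1A control spots. Of the other complement genes, 6 were higher and 19 of 44 lower without a filter (5.1% and 31.5% of all genes), 13 were higher with E1A control spots (39.0%), 4 were higher with the 75th percentile (6.39%) and with loess (6.18%), 5 were past 1.5-fold higher (9.84%), and 1 was lower with normexp (2.78%). The E1A values follow from a constant shift of every ratio measured on both arrays and those without a filter from reading dim probes too, by construction, and the mean of probes for C4b is halved because its dimmer probe counts as 0. The cause of the others was not tested. No choice run turned the sign of a complement gene named as past 2-fold. No paired analysis was possible because each genotype has 1 array. Signal over background limits C1qa, C1qc, Cfi and the dimmer probe of C4b, which have no fold.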
